A study of Mus musculus with 8 samples.

Results

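The core circadian clock genes Arntl, Clock, Npas2, Per1, Per2, Per3, Cry1, Cry2, Nr1d1 and Nr1d2 were read in RNA-seq of the soleus (SOL), a hindlimb muscle rich in slow fibers. They were chosen by symbol and make up 10 of the 24054 genes in the table. All 8 mice were male, of strain C57BL/6, and their labels record a high fat diet. The 4 flox mice carried floxed alleles of Irf4, a transcription factor, without Cre, and the 4 MI4KO mice carried the same alleles with Cre under the Myl1 promoter, which is active in skeletal muscle fibers. Other cell types of the muscle keep the gene. The age of the sequenced mice and the time of day of dissection are not given in the sources used here. Within each group, mice 1 to 4 follow their own label numbers, from low to high. Values are TMM-normalized CPM, that is CPM after a scaling of the libraries (the trimmed mean of M-values) that keeps most genes at the same level between libraries.

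The clock of mammalian cells is a loop of transcription and repression. ARNTL (BMAL1) pairs with CLOCK or its relative NPAS2 and activates genes through E-boxes, among them the Per and Cry genes, whose proteins return to the nucleus and repress the pair. A second loop runs through NR1D1 and NR1D2 (REV-ERB alpha and beta), which are induced by the same pair and repress Arntl through a site called RORE. Arntl and Nr1d1 therefore peak at opposite times of day in muscle, and a list that averages them can hide a shift in both. For this reason each gene is given by itself and in each mouse. A single sample per mouse shows no rhythm and no phase.

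Promoter windows of the members are shown because the arms of the loop are defined by short motifs of this kind. RefSeq (GRCm38.p6) gives windows from 250 bases before to 50 bases after the start for 13 promoters of 9 members, and Per2 has no entry. Both strands were searched for the E-box CACGTG, its variant CACGTT, the RORE core AGGTCA and the D-box TTATGTAA, at which DBP, TEF, HLF and NFIL3 act. The E-box letters are in 7.15% of 32851 promoters of this length, and among the members they were found at Per1 and Cry1. The variant is in 4.69% of all promoters and was found at Cry1, Cry2 and Nr1d1. The RORE core is in 16.3% of all and was found at Arntl, Clock, Per1 and Nr1d2, and the D-box is in 0.938% and was found at Per3, at 2 places. No printed site overlaps another. The lines below show a site for each arm of the loop, 5′ to 3′ on the gene's strand, with the motif or its reverse complement in capitals. A match is a description of letters and not a bound site.
Per1 E-box, chr11:69098763-69098808, + strand, position -166: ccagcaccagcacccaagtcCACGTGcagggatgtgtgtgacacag
Cry1 E-box, chr10:85185089-85185134, - strand, position -60: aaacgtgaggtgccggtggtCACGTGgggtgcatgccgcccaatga
Cry2 E-box variant, chr2:92434210-92434255, - strand, position -166: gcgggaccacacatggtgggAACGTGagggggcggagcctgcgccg
Nr1d1 E-box variant, chr11:98775380-98775425, - strand, position -28: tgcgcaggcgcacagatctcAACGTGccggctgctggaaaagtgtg
Arntl RORE core, chr7:113207530-113207559, + strand, position 31: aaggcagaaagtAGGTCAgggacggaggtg
Nr1d2 RORE core, chr14:18239158-18239203, - strand, position -77: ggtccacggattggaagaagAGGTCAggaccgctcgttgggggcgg
Per3 D-box, chr4:151044843-151044890, - strand, position -205: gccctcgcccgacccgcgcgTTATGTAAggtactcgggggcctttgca
Per3 D-box, chr4:151044796-151044843, - strand, position -158: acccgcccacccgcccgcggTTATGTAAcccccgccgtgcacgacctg

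Each mouse gave 1 library, with 13916450 to 16137925 reads on genes in flox mice (median 14152789) and 13417512 to 16384565 in MI4KO mice (median 15094072). A count of 3 reads equals a value of 0.181 to 0.225. The 7 slow fiber markers were present in every mouse, with a summed level of 32196 to 42353. The 7 fast fiber markers summed to 44013 to 59321, above the slow sum in every mouse. Among them Myh4 varied most, from 34.5 in flox mouse 3 to 2496 in flox mouse 2. The part of fiber content in the clock values was not tested. Irf4 itself was low, at 0.686, 1.46, 1.58 and 1.68 in flox mice 1 to 4 and at 0.725, 0.840, 0.266 and 1.03 in MI4KO mice 1 to 4. Its log2 fold change was -0.45 ± 0.20 (SE, limma, unadjusted p = 0.0402, adjusted p = 1.0, exact permutation p = 0.114), and the groups overlapped. This fold is on log2(value + 1), which understates the fold of so low a gene. The means were 1.35 ± 0.451 and 0.715 ± 0.324 (SD, n = 4 each), a ratio of 0.530, on 4 to 23 reads. A pair of libraries stood apart. In flox mouse 1 all 10 liver markers were highest, with a sum of 165 against 6.31 to 15.9 in the other mice. In MI4KO mouse 3 all 11 glucocorticoid-responsive genes of the list used here were highest, and the 5 neutrophil markers with a row summed to 4.25 against 0.146 to 0.375 elsewhere. Where leaving out either or both of these mice moved a fold change of a member by more than 1.5 times or turned its direction, the value without them is given beside it. In whole muscle, fewer cells of a type and less RNA per cell cannot be told apart.

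The first question was whether the clock genes differed between MI4KO and flox SOL. They did not separate by genotype. The test was limma on log2(value + 1). It took in 11865 genes that reached 1 CPM in 4 or more mice, among them 9 members, while Npas2 was too low. Of the 9, 0 passed an adjusted p under 0.05 (0.0% of all genes tested), 0 passed an unadjusted p under 0.05 (3.36% of all, 399 genes) and 0 passed the limits of the study, a fold of at least 1.5 with p under 0.05 (0.219% of all, 26 genes). The study set these limits for its own edgeR comparison, so the count of 26 in limma does not stand for its yield. On recovered reads, edgeR and DESeq2 also called 0 members at an adjusted p under 0.05. They placed 65 and 51 genes past the limits of the study, with 0 members among them. In 0 of the 9 were the values of the groups separate, against 2.07% of all genes tested. With 3 members higher and 6 lower in MI4KO mice, the median log2 fold change of the members was -0.05, and that of all genes tested was -0.01. The 95% intervals of the folds ran from 0.587 to 1.53 in all, with both ends set by the members that varied most, Nr1d1 at the lower end and Arntl at the upper. For the even members they were narrower, at 0.910 to 1.16 for Nr1d2, 0.869 to 1.204 for Clock and 0.823 to 1.13 for Cry1.

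**Figure D1:**
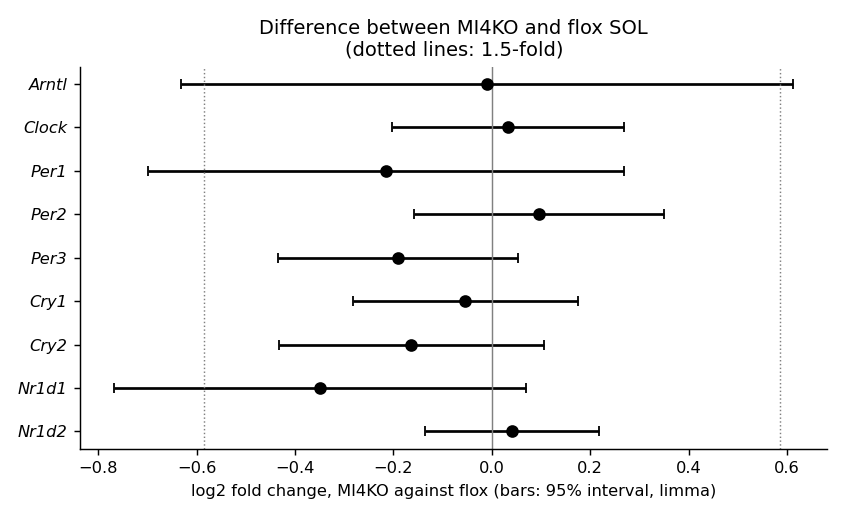
Log2 fold change of each tested core clock gene, MI4KO against flox (horizontal axis), with its 95% interval from limma (4 mice in each group). Each interval includes 0, and those of Arntl, Per1 and Nr1d1 are the widest and reach past a dotted line at a fold of 1.5.

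Arntl, the activator without which the loop stops, lay at 5.36, 7.21, 6.60 and 9.76 in flox mice 1 to 4 and at 7.40, 3.43, 13.9 and 6.53 in MI4KO mice 1 to 4. Both the lowest and the highest mouse were MI4KO, and the 4 flox mice lay between them. The means were 7.24 ± 1.85 and 7.81 ± 4.40 (SD, n = 4 each), with a log2 fold change of -0.01 ± 0.29 (SE, limma, adjusted p = 1.0, exact permutation p = 0.971). The sign of this value turns with the scaling, since it was 0.01 with median-of-ratios factors and 0.02 with library sums. It was -0.12 without flox mouse 1, -0.31 without MI4KO mouse 3 and -0.42 without both (limma, adjusted p = 0.895).

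Clock, the partner of ARNTL, was at 24.7, 28.3, 25.6 and 25 in flox mice and at 23.6, 22.7, 32.1 and 28.5 in MI4KO mice 1 to 4. Again MI4KO mice 2 and 3 were the lowest and the highest of all 8. The log2 fold change was 0.03 ± 0.11 (SE, limma, exact permutation p = 0.800), and it was 0.01 without flox mouse 1, -0.06 without MI4KO mouse 3 and -0.08 without both. Npas2, which can stand in for Clock, was close to the limit of detection, at 0.499, 0.347, 0.375 and 0.291 in flox mice and 0.218, 0.194, 0.731 and 0.302 in MI4KO mice. These values rest on 3 to 11 reads, with 11 in MI4KO mouse 3. An exact two-sided permutation test of 4 against 4 mice, whose smallest p is 0.0286, gave p = 0.886. In these values all 3 genes of the activating arm were highest in MI4KO mouse 3 and lowest in MI4KO mouse 2. Over all genes tested, MI4KO mouse 3 was the highest for 30.9% and MI4KO mouse 2 the lowest for 16.7%. For Npas2, MI4KO mouse 1 had the same count of 3 reads. For Clock, flox mouse 3 was the lowest with library sums.

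Nr1d1, the main repressor of Arntl, had the largest log2 fold change among the tested members. Its values were 81.7, 120.2, 89.4 and 129 in flox mice 1 to 4 and 83.0, 94.0, 52.7 and 103 in MI4KO mice 1 to 4. MI4KO mouse 3 was the lowest of all, and the other 3 MI4KO mice lay within the flox range. The means were 105 ± 22.9 and 83.2 ± 22.0 (SD, n = 4 each), and the log2 fold change was -0.35 ± 0.19 (SE, limma, adjusted p = 1.0, exact permutation p = 0.257). It was -0.15 without MI4KO mouse 3 (limma, adjusted p = 0.978), so that the value moved by more than 1.5 times without this mouse. It was -0.46 without flox mouse 1 (limma, adjusted p = 0.999) and -0.47 without MI4KO mouse 4 (limma, adjusted p = 0.945), and its unadjusted p was under 0.05 in both. On the opposite strand, Nr1d1 shares 263 exonic bases with Thra, a thyroid hormone receptor, and whether the reads were counted by strand is not given in the sources used here. Thra itself lay between 60.3 and 66.2 in all mice.

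Nr1d2, its close relative, was the most even member, at 96.7, 88.2, 86.7 and 77.4 in flox mice and 94.0, 84.9, 84.1 and 95.5 in MI4KO mice. The groups covered nearly the same range, with a log2 fold change of 0.04 ± 0.08 (SE, limma, exact permutation p = 0.657). It was 0.09 without flox mouse 1, 0.07 without MI4KO mouse 3 and 0.12 without both (limma, adjusted p = 0.910). In MI4KO mouse 3, where Nr1d1 was lowest, Nr1d2 was within the range of the others. The ratio of Nr1d1 to Nr1d2 was 0.626 in that mouse and 0.845 to 1.66 in the other 7.

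Per1 is a repressor of the loop that glucocorticoids also induce directly. It was at 66.3, 68.1, 87.7 and 101 in flox mice and at 45.3, 57.2, 110.1 and 76.7 in MI4KO mice 1 to 4. The MI4KO mice held both extremes here too. The log2 fold change was -0.21 ± 0.22 (SE, limma, adjusted p = 1.0, exact permutation p = 0.514). Without MI4KO mouse 3 it was -0.44 (limma, adjusted p = 0.969), and without that mouse and flox mouse 1 it was -0.53 (limma, adjusted p = 0.895), with an unadjusted p under 0.05 in both. Without MI4KO mouse 1 it was -0.02 (limma, adjusted p = 0.999). The Per1 value therefore rested on which of these mice were kept.

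Per2, a paralog in the same repressor complex, was at 17.3, 14.6, 18.4 and 14.9 in flox mice and at 14.6, 18.5, 16.4 and 20.8 in MI4KO mice. It varied little and did not follow Per1. The log2 fold change was 0.10 ± 0.12 (SE, limma, exact permutation p = 0.514), and 0.15 without flox mouse 1 and MI4KO mouse 3. The ratio of Per1 to Per2 was highest in flox mouse 4 and MI4KO mouse 3, at 6.78 and 6.73, and lowest in MI4KO mice 1 and 2, at 3.10 and 3.09. Per3, whose promoter window holds the D-boxes shown above, was at 19.1, 18.2, 23.0 and 19.4 in flox mice and 14.3, 18.4, 16.8 and 20.2 in MI4KO mice. Its log2 fold change was -0.19 ± 0.11 (SE, limma, exact permutation p = 0.229).

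Cry1 and Cry2 encode the cryptochromes, the repressors that act with PER proteins. Cry1 was at 14.7, 17.2, 19.1 and 18.2 in flox mice and 17.9, 15, 18.4 and 15.2 in MI4KO mice, with groups that overlapped almost fully and a log2 fold change of -0.05 ± 0.11 (SE, limma, exact permutation p = 0.714). This was -0.12 without flox mouse 1, -0.10 without MI4KO mouse 3 and -0.17 without both (limma, adjusted p = 0.905). Cry2 was at 91.0, 57.6, 70.5 and 79.0 in flox mice and 73.9, 64.6, 57.5 and 67.1 in MI4KO mice. The highest value was that of flox mouse 1 and the lowest that of MI4KO mouse 3, which lay next to flox mouse 2. Its log2 fold change was -0.16 ± 0.12 (SE, limma, exact permutation p = 0.314). It rested on single mice, since it was -0.06 without flox mouse 1, -0.10 without MI4KO mouse 3, -0.28 without flox mouse 2 (unadjusted p under 0.05, limma, adjusted p = 1.0) and -0.00 without both flox mouse 1 and MI4KO mouse 3 (limma, adjusted p = 0.999). Cry2 shares 295 exonic bases, 4.67% of its exons, with a transcript on the other strand, D930015M05Rik, so a part of its reads is uncertain in the same way.

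**Figure D2:**
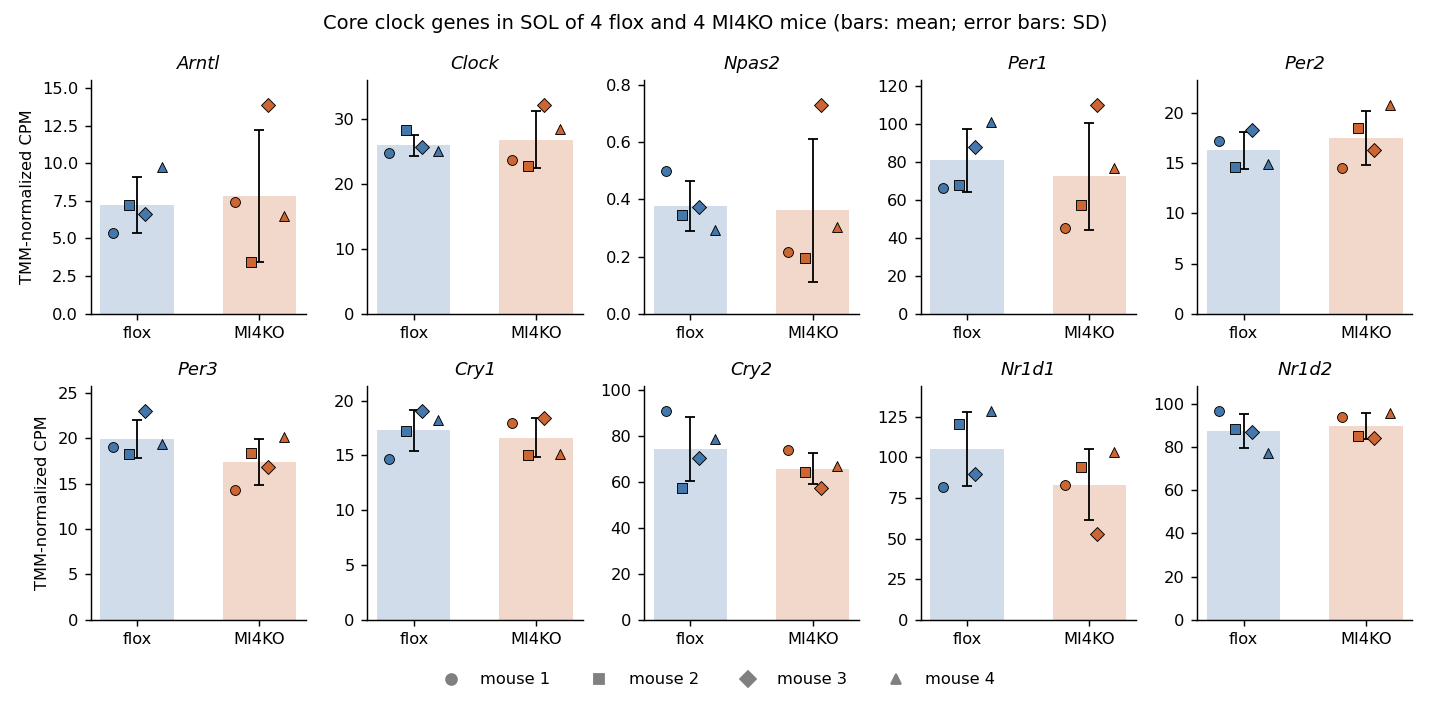
TMM-normalized CPM (vertical axis, from 0) of the 10 core clock genes in 4 flox mice (blue) and 4 MI4KO mice (orange). Bars are means, error bars are SD and each symbol is 1 mouse, and MI4KO mouse 3 (diamond) is the highest mouse for Arntl, Clock, Npas2 and Per1 and the lowest for Nr1d1 and Cry2.

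How much the members varied between mice of 1 group set them apart from each other. The SD within groups on the log2 scale was 0.55 for Arntl, 0.44 for Per1 and 0.37 for Nr1d1, above 98.7%, 97.6% and 95.7% of the genes tested. For Cry2 (0.22), Per2 (0.18), Per3 (0.17), Clock (0.17), Cry1 (0.15) and Nr1d2 (0.11) it was closer to the median of all genes tested, 0.15. The highest mouse exceeded the lowest by a ratio of 4.05 for Arntl, 2.44 for Nr1d1 and 2.43 for Per1, and by 1.25 for Nr1d2, with a median of 1.40 over all genes tested. Among the 9 tested members, the 3 that varied most with all mice kept thus include both Arntl and Nr1d1, the genes of opposite phase. The spread of both leaned on MI4KO mouse 3. Without it Nr1d1 ran from 81.7 to 129 instead of 52.7 to 129, and Arntl from 3.43 to 9.76 instead of 3.43 to 13.9. Per1 changed less, from 45.3 to 101 instead of 45.3 to 110.1. Npas2, which was not tested, spread by a ratio of 3.77 on 3 to 11 reads.

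Arntl and Nr1d1, read against each other, gave a ratio of Nr1d1 to Arntl of 15.2, 16.7, 13.5 and 13.2 in flox mice 1 to 4 and of 11.2, 27.4, 3.79 and 15.8 in MI4KO mice 1 to 4. MI4KO mouse 3, with high Arntl and low Nr1d1, had the lowest ratio, and MI4KO mouse 2, with low Arntl and an intermediate Nr1d1, had the highest. The other 6 mice lay between 11.2 and 16.7. Against Clock, the ratio of Nr1d1 was 1.64 in MI4KO mouse 3 and 3.31 to 5.14 in the rest.

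**Figure D3:**
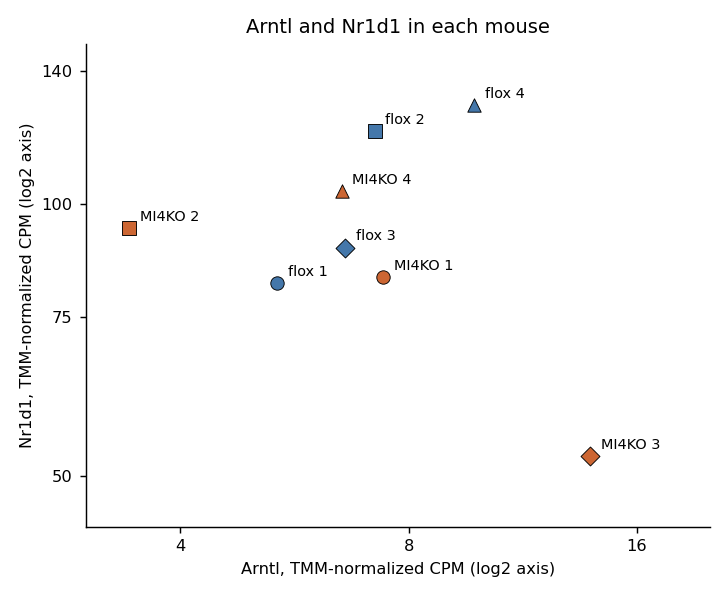
Arntl (horizontal) and Nr1d1 (vertical) in each of the 8 mice, in TMM-normalized CPM on log2 axes, flox in blue and MI4KO in orange. MI4KO mouse 3 lies apart at the lower right, with Arntl at 13.9 and Nr1d1 at 52.7, and MI4KO mouse 2 at the left, with Arntl at 3.43.

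Across all 8 mice the correlation of Arntl with Nr1d1 on the log2 scale was weak (Pearson r = -0.34, exact permutation p = 0.400, adjusted p = 0.901, Spearman rho = -0.05, exact permutation p = 0.935, adjusted p = 0.999). Without MI4KO mice 2 and 3, the mice farthest from the median of Arntl, r was 0.72 (exact permutation p = 0.0819), and without MI4KO mouse 3 alone it was 0.51 (exact permutation p = 0.252). The negative sign therefore rested on MI4KO mouse 3. Among the 45 pairs of members, 0 passed an adjusted p under 0.05 by these exact tests and 3 had an unadjusted p under 0.05.

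The first of the 3 pairs was Clock with Npas2 (r = 0.74, exact permutation p = 0.0350, rho = 0.67, exact permutation p = 0.0831, adjusted p = 0.522 and 0.680). Its r was 0.51 without MI4KO mice 3 and 4 (exact permutation p = 0.304) and 0.38 without MI4KO mouse 3 alone (exact permutation p = 0.409). Npas2 rests on 3 to 11 reads, with 11 in MI4KO mouse 3, so counting error is large in this pair. Arntl with Clock (r = 0.72, exact permutation p = 0.0458, rho = 0.48, exact permutation p = 0.243, adjusted p = 0.522 and 0.781) rested on MI4KO mice 2 and 3, since r was -0.10 without them. Arntl with Cry1 (r = 0.70, exact permutation p = 0.0454, rho = 0.74, exact permutation p = 0.0458, adjusted p = 0.522 and 0.680) kept an r of 0.64 without these mice (exact permutation p = 0.178). After the mean of each range of mouse numbers, described below, was subtracted, r was 0.76, 0.50 and 0.56 for the 3 pairs. The 3 also depended on the scaling, since with library sums r was 0.45, 0.45 and 0.41 and with median-of-ratios factors 0.61, 0.61 and 0.58, with no unadjusted exact permutation p under 0.05 in either.

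MI4KO mouse 3 was the highest of the 8 for 4 of the 10 members (Arntl, Clock, Npas2 and Per1) and the lowest for 2 (Nr1d1 and Cry2). It was also the highest mouse for 30.9% of all genes tested and the lowest for 13.3%. Per2, Per3, Cry1 and Nr1d2 lay within the range of the other mice in it. In the same mouse the 11 glucocorticoid-responsive genes, of which Per1 is a member, summed to 1345, against 452 to 632 in the others, and Fkbp5, a glucocorticoid-induced chaperone partner, was at 159 against 19.4 to 31.2. Ppp1r3c, which encodes the glycogen-targeting protein PTG, was at 1128 in it and at 222 to 293 elsewhere. The part of these differences in the clock values of this mouse was not tested.

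**Figure D4:**
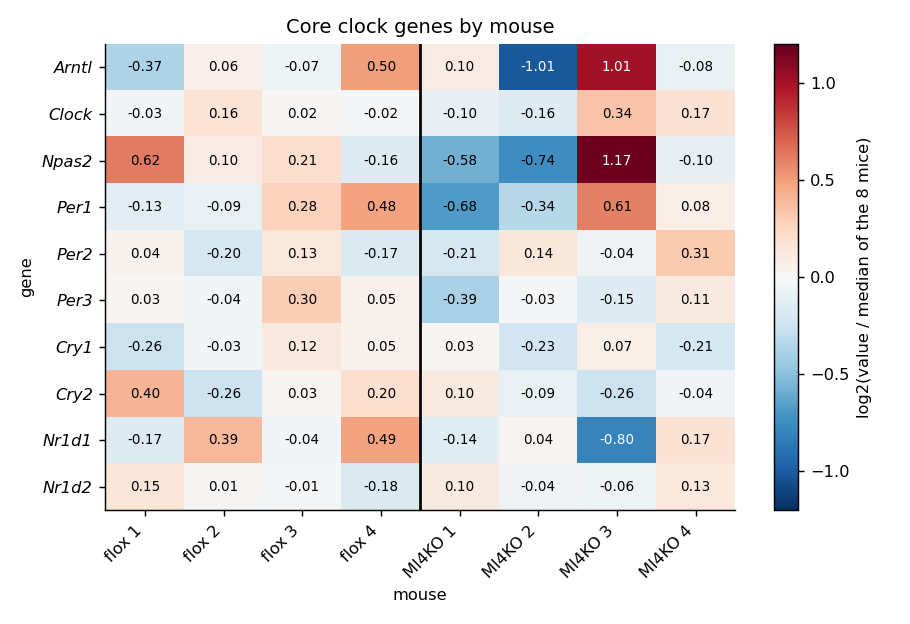
Each core clock gene (rows) in each mouse (columns, flox left of the line and MI4KO right of it), as log2 of the value over the median of the 8 mice, red for higher and blue for lower. The columns of MI4KO mice 2 and 3 hold the extremes for Arntl, at -1.01 and 1.01, while the rows of Nr1d2 and Cry1 stay near 0.

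The numbers in the labels fall into a low range (flox mouse 1, MI4KO mice 1 and 2) and a high range, well apart from it (flox mice 2, 3 and 4, MI4KO mice 3 and 4). The labels do not say what the ranges stand for, and the comparison was added after the values were seen. In the TMM-normalized values, Per1 and Clock separated by range and not by genotype. Per1 was at 45.3, 57.2 and 66.3 in the low range and at 68.1 to 110.1 (median 87.7) in the high range, without overlap. Clock was at 22.7, 23.6 and 24.7 against 25 to 32.1 (median 28.3). Its gap, from 24.7 to 25, was narrow, and with library sums its ranges overlapped. With the deposited TMM scaling, groups of mice that do not overlap by range were seen in 2 of the 9 tested members and in 4.91% of all genes tested.

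In a limma fit with group and range together, Per1 was higher in the high range by 0.63 ± 0.16 (log2, SE, adjusted p = 0.659), Arntl by 0.65 ± 0.25 (SE, adjusted p = 0.773) and Clock by 0.25 ± 0.10 (SE, adjusted p = 0.792). Cry2, a repressor as Per1 is, differed in the other direction, by -0.26 ± 0.11 (SE, limma, adjusted p = 0.799). The other repressors of its arm leaned higher, Cry1 by 0.14, Per3 by 0.13 and Per2 by 0.04. Without flox mouse 1, which holds the highest Cry2, this was -0.15 and its unadjusted p was above 0.05, as it also was without flox mouse 2 or 3 and without MI4KO mouse 1 or 3. With library sums the difference of Clock was 0.18, and its unadjusted p was above 0.05. An unadjusted p under 0.05 was thus found for 4 of the 9 members and for 6.14% of all genes tested, and 0 passed an adjusted p under 0.05. Over all genes, those at this unadjusted p were 562 higher and 167 lower in the high range. They were 395 and 347 with median-of-ratios scaling and 256 and 554 with library sums. Per1 and Arntl stayed higher with library sums, by 0.55 and 0.59. Without MI4KO mouse 1, 2 or 3, 2 of the 9 had an unadjusted p under 0.05. Without MI4KO mouse 3, Per1 was at 0.46 (limma, adjusted p = 0.663) and Arntl at 0.39 (limma, adjusted p = 1.0). Nr1d1 differed by 0.04 with all mice (limma, adjusted p = 0.980) and by 0.34 without MI4KO mouse 3 (limma, adjusted p = 0.860).

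With the range in the fit, the log2 fold change of Per1 between the groups was -0.06 (limma, adjusted p = 0.999), and that of Nr1d1 was -0.34 (limma, adjusted p = 0.999). Other genes moved with the ranges beside the members. Of the 11 glucocorticoid-responsive genes, 3 had separate ranges (Fkbp5, Sgk1 and Per1, itself a member), against 4.91% of all genes tested. Fkbp5 was at 19.4 to 23.3 in the low and 24.3 to 159 in the high range. Of the 5 endothelial markers, 4 had an unadjusted p under 0.05 by range in limma, against 6.14% of all genes tested. Of these markers 0 had separate ranges by themselves, and only their sum did. This sum was 239.5 to 323 in the low range and 335 to 387 in the high range. Between the groups, all 5 endothelial markers were lower in MI4KO mice, with a median log2 fold change of -0.26. Of the 5, 2 had an unadjusted p under 0.05 in limma, against 3.36% of all genes tested, and 0 passed an adjusted p under 0.05. Their part in the differences of the clock genes was not tested.

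**Figure D5:**
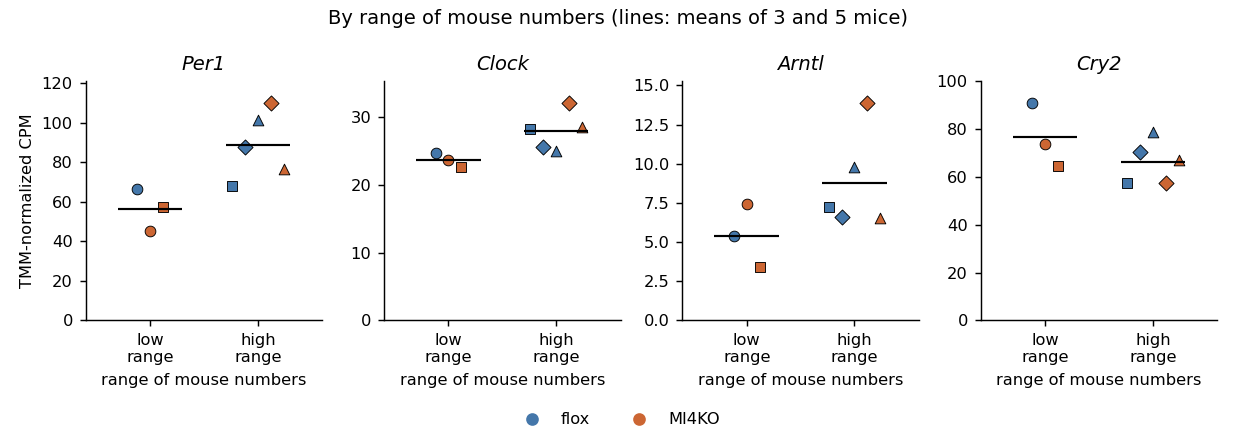
TMM-normalized CPM (vertical axes, from 0) of Per1, Clock, Arntl and Cry2 in the 3 mice of the low and the 5 mice of the high range of label numbers, flox in blue and MI4KO in orange, with lines at the means. Per1 and Clock do not overlap between the ranges in these values, but both leave a narrow gap, from 66.3 to 68.1 for Per1 and from 24.7 to 25 for Clock.

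The genes driven by the clock and those that modify its proteins were read from lists. The 7 output transcription factors, which carry the rhythm to other genes, include 0 with an unadjusted p under 0.05 in limma, with 1 higher and 6 lower and a median log2 fold change of -0.18. Dbp, the activator at D-boxes and a direct target of the CLOCK and ARNTL pair, had the lowest, at -0.51 ± 0.25 (SE, limma, exact permutation p = 0.200), and stood at 109, 169.9, 157 and 163 in flox and 112, 138, 53.7 and 135 in MI4KO mice. As for Nr1d1, MI4KO mouse 3 was the lowest and the other 3 MI4KO mice lay within the flox range. Nfil3, the repressor at the same D-boxes, had the highest, at 0.32 ± 0.35 (SE, limma, exact permutation p = 0.686), and was at 84.6 in MI4KO mouse 3 against 19.3 to 39.6 in the others. The ratio of Dbp to Arntl was 3.87 in that mouse and 15.1 to 40.3 in the rest.

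Of 25 regulators of clock proteins, such as the kinases Csnk1d and Csnk1e that phosphorylate PER proteins, 22 were tested and 0 had an unadjusted p under 0.05 in limma. Their median log2 fold change was 0.03. Values ran from Timeless at -0.17 ± 0.11 (SE, limma, adjusted p = 1.0, exact permutation p = 0.0286, the smallest this test can give) to Rora at 0.19 ± 0.14 (SE, limma, exact permutation p = 0.371). Timeless was the list's only gene with separate groups (flox mice at 3.99 to 4.72, MI4KO mice at 3.52 to 3.81), on 51 to 68 reads. Separate groups were seen in 2.07% of all genes tested. Rora encodes the receptor that activates at the RORE, where NR1D1 represses, and it was highest in MI4KO mouse 3, at 70.9 against 40.3 to 50.6.

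The 10 genes that the clock is known to drive in muscle also included 0 with an unadjusted p under 0.05 in limma, with 7 higher and 3 lower and a median log2 fold change of 0.03. They ran from Wee1, a cell cycle kinase, at -0.29 ± 0.16 (SE, limma, exact permutation p = 0.229) to the deadenylase gene Noct, listed as Ccrn4l, at 0.26 ± 0.21 (SE, limma, exact permutation p = 0.543). Of the 11 glucocorticoid-responsive genes, 0 had an unadjusted p under 0.05 between the groups in limma, with 8 higher and 3 lower. Values ran from Per1 at -0.21 to Mt2, a metallothionein, at 0.94 ± 0.76 (SE, limma, exact permutation p = 0.514), which stood at 59.6 in MI4KO mouse 3 and at 1.67 to 7.63 elsewhere. The median log2 fold change of this list was 0.20, and its spread within groups was larger than that of the members, with a median SD of 0.67 against 0.18.

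Genes whose pattern over the 8 mice was most like that of Arntl or Nr1d1 were looked up among 11856 other genes tested, as a description over libraries that share their depth and scaling. Closest to Arntl were Pcf11 (r = 0.97), D17H6S53E (r = 0.97) and Grtp1 (r = 0.97). Closest to Nr1d1 were Mfng (r = 0.99), Arhgap18 (r = 0.97) and Mxra7 (r = 0.96). Mfng was at 3.55, 4.58, 3.98 and 4.95 in flox and at 3.48, 4.01, 2.53 and 4.23 in MI4KO mice, and so had the same lowest and highest mouse as Nr1d1. Without MI4KO mouse 3 the 6 correlations were 0.90 to 0.98. With so many genes and 8 mice, values of this size are to be read as a ranking only.

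Levels between genes were compared per kilobase of the principal transcript (GENCODE M21, GRCm38). Nr1d1 (chromosome 11, 98767932 to 98775333) was the highest, at 34.6 ± 8.75 CPM per kilobase (SD, n = 8), although its lowest mouse, at 19.3, fell within the range of Nr1d2, which reached 20.7. Nr1d2 (chromosome 14, 18204054 to 18239127) followed at 19.0 ± 1.42, Cry2 (chromosome 2, 92403646 to 92434043) at 17.6 ± 2.83 and Per1 (chromosome 11, 69095217 to 69109960) at 16.4 ± 4.71. By this length these 3 lay within their spread of each other. Cry1 (chromosome 10, 85131700 to 85185064) was at 5.61 ± 0.575 CPM per kilobase and stood clear of its neighbours in the order.

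The lower members were Per3 (chromosome 4, 151003652 to 151044665) at 3.11 ± 0.422 CPM per kilobase, Per2 (chromosome 1, 91415982 to 91459324) at 2.90 ± 0.384, Clock (chromosome 5, 76209868 to 76304792) at 2.70 ± 0.318 and Arntl (chromosome 7, 113207465 to 113314126) at 2.53 ± 1.06. By the principal transcript these did not differ beyond their spread. Npas2 (chromosome 1, 39193731 to 39363236) was last at 0.0873 ± 0.0411. With the length of all exons of a gene in place of the principal transcript, Cry2 and Per1 changed places, as did Per3 and Per2.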

How the data were processed

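RNA of SOL from 4 flox and 4 MI4KO mice was prepared with a stranded poly(A) kit and sequenced as single reads of 50 bases. Per the paper's methods and the submitters' processing notes, which name bcl2fastq 2.17, Bowtie2 2.1.0, RSEM 1.2.15 and mm10, the authors mapped reads to UCSC transcripts and estimated gene levels. The deposited signal is TMM-normalized CPM, 1 column per mouse. The authors also deposited a fold-change score, a p-value and an FDR for each gene from their own edgeR comparison of the groups, which were not used.

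In each mouse 100% of non-zero values were whole multiples of the value of 1 read (tolerance 0.01), so reads were recovered. Totals and floors cover counting error only. No pair of libraries agreed within sampling noise, with a chi-square per degree of freedom of at least 6.06. Of 24054 genes, 6086 had no read.

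Groups were taken from the labels. The main test was limma 3.58.1 (R 4.3.3) on log2(value + 1) with trend, on genes at 1 CPM or more in 4 mice, with Benjamini-Hochberg adjustment over all genes tested. Fold changes on this scale understate those of low genes. p-values measure the spread between these mice. Alternatives were a pseudocount of 0.25, no filter, rescaling by median-of-ratios or library sum, limma without trend or robust, the range of mouse numbers as covariate, each mouse left out, and edgeR 4.0.16 (quasi-likelihood) and DESeq2 1.42.0 on recovered reads. Exact permutation tests went through every regrouping or pairing of the mice with numpy 2.4.6, and scipy 1.17.1 gave the ranks for rho. The fits were tested on simulated data.

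The members and lists were chosen with earlier results of these data known. Named are all members, the highest and lowest log2 fold change and any gene at p under 0.05 of each list of pathway genes, the 3 genes most correlated with Arntl and with Nr1d1, Irf4 and Ppp1r3c. Thra, D930015M05Rik, Fkbp5, Sgk1, Myh4, Csnk1d and Csnk1e were singled out afterwards. The lists that are named only by cell type hold markers. The other muscle of the study was not analysed here.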

Additional observations from a re-analysis of the deposited data

Results flagged for a closer look

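Ppp1r3c, read beside the clock genes, was 1128.3 in MI4KO mouse 3 and 259.8 to 292.6 in the other 3 MI4KO mice. Its gap to the nearest mouse took 0.919 of the range of the group, above Dixon's 95% critical value for 4 samples. It was 1 of 24 groups examined (12 genes in 2 groups), of which chance would flag about 1 in 20. No group of a core clock gene passed this value, so the high Arntl and low Nr1d1 of the same mouse were not set apart by it.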

How the results depend on the processing

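The count of members at an adjusted p under 0.05 was 0 under every alternative run, and the lowest adjusted p of any member was 0.895. Members at an unadjusted p under 0.05 numbered 0 with all mice, 0 to 2 with each mouse left out (Nr1d1 without flox mouse 1, Cry2 without flox mouse 2, Per1 without MI4KO mouse 3, Per3 and Nr1d1 without MI4KO mouse 4) and 1 (Per1) without both MI4KO mouse 3 and flox mouse 1. Over all genes, 0 passed an adjusted p under 0.05 in limma, edgeR and DESeq2 (399, 363 and 248 at an unadjusted p), with 0 to 1 with each mouse left out (1 without MI4KO mouse 2) and 1 without both mice. Genes past a fold of 1.5 with p under 0.05 numbered 26, and 60 with a pseudocount of 0.25, 13 in robust limma, 65 in edgeR, 51 in DESeq2, 41 without both mice and 19 to 58 with each mouse left out (58 without MI4KO mouse 4). The 399 genes split into 49 higher and 350 lower, but 136 and 259 with median-of-ratios scaling and 263 and 132 with library sums. Arntl turned to 0.01 (median-of-ratios), 0.02 (library sum), 0.11 (edgeR), 0.11 (DESeq2) and 0.15 (range as covariate), with -0.31 to 0.28 as mice were left out. Clock ran from -0.06 to 0.10 as mice were left out and was -0.08 without both, and Nr1d2 ran from -0.01 to 0.09. Members at p under 0.05 by range of mouse numbers numbered 4, and 2 to 4 with each mouse left out (2 without MI4KO mouse 1, 2 or 3), and the range difference of Nr1d1 was -0.03 with library sums and -0.26 to 0.34. The r of Arntl with Nr1d1 ran from -0.62 to 0.51. With group means subtracted, 5 of 45 pairs had an unadjusted p under 0.05, and the smallest adjusted p was 0.0547 (exact permutation). The largest r in size were then Per2 with Per3, at 0.92 (0.59 before), and Npas2 with Nr1d1, at -0.85 (-0.70 before). The causes were not tested. No paired analysis was possible because the labels give the groups no shared replicate numbers. Among the members, depth limits mainly Npas2, at 3 to 11 reads.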
